A study of Mus musculus with 6 samples.

Results

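Small nuclear RNAs (snRNAs) are the short non-coding RNAs at the core of the spliceosome, the machine that removes introns from pre-mRNA. U1 base-pairs with the 5′ end of the intron, U2 pairs with the branch site, and U4, U5 and U6 join as a tri-snRNP, while U11, U12 and U6atac serve the rarer minor introns. Most of these RNAs are made by RNA polymerase II and wear a ring of Sm proteins, whereas U6 and U6atac are made by RNA polymerase III and carry a ring of Lsm proteins. Families such as U1, U2 and U6 are encoded by several near-identical genes, and the genome also holds many diverged copies, most of them of U6. Mature snRNAs have no poly(A) tail.

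The genes described here were the rows of the deposited gene table typed as snRNA whose estimated counts summed to 30 or more over the 6 libraries. There were 105 such genes of 1383 snRNA genes, in a table of 53342 genes, and 1111 of the 1383 had a count in any library. They were thus chosen by their summed counts over both genotypes, so the height of a gene over all 6 libraries is a description and not a finding. Just inside the threshold were Gm25225 with a sum of 30.91 and Gm22607 with 30.37, and just outside it were Gm25134 with 29.92 and Gm26138 with 29.70. The rule also let a gene in through the knockout libraries alone: 28 of the 105 reached 30 with their Mmp13-/- counts and not with their wild type (WT) counts.

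Dental pulp RNA was sequenced from 3-month-old C57BL/6 mice, 3 WT (replicates 2, 4 and 5) and 3 lacking the collagenase gene Mmp13 (labelled MMP13KO, replicates 1, 2 and 6). The labels name molars as the source of the pulp and a silica column kit for the RNA, while the methods of the study name incisors and TRIzol. The sample titles name molars for WT and no tooth for the knockout. The study describes the knockout as homozygous and global, and the mice as male, so every cell type of the pulp and of its surroundings lacked the gene. In bulk tissue, fewer cells of a type and less RNA per cell cannot be told apart.

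Library totals ran from 21561420 to 29980236 estimated counts. Levels are given as CPM, the estimated count scaled to 1000000 counts of a TMM-adjusted library total. The targeted gene, Mmp13, had 1068.75, 1138.83 and 827.08 counts in WT and 10.19, 32.91 and 40.40 in Mmp13-/-, a log2 difference of -4.96 (SE 0.46, edgeR adjusted p = 7.68e-05). MMP13KO replicate 6 stood apart in its composition, with a scaling factor of 0.80 against 0.97 to 1.20 elsewhere. Counts on 1452 odorant and vomeronasal receptor genes came to 18.2 to 21.5 CPM in WT and to 256, 315 and 1491 in Mmp13-/- replicates 1, 2 and 6. At that rate a stretch of 107 bases, the length of U6, would collect 0.01 counts in a WT library and 0.16 to 0.51 in a knockout library. Of 14 erythroid and bone marrow markers 11 were called higher in Mmp13-/-, with sums of 999 to 1670 CPM in WT and 2731 to 5529 in Mmp13-/-. Of 10 skeletal muscle markers 8 were called lower, from 98149.7 to 114635 in WT to 26823 to 58358 in Mmp13-/-. Of 10 odontoblast and pulp markers 2 were called higher and 3 lower, with sums of 54758 to 61471 in WT and 16640.0 to 22123 in Mmp13-/- and a median log2 difference of -0.69. Most of these sums came from Col1a1 (mean 39702 in WT and 8865 in Mmp13-/-) and Col1a2 (16748 and 7007). These 2 genes and Nes were called lower, while Dspp (log2 difference 1.13) and Phex (1.68) were called higher. Of 8 enamel organ markers 1 was called higher and 2 lower, with enamel sums of 4879 to 6248 in WT and 4956 to 6509 in Mmp13-/-. Beside these counts, 20.4% of all tested genes were called higher and 9.68% lower. No marker was at 0 in any library. The part of these cell types in the results that follow was not tested.

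The copies were placed in families by comparing each annotated transcript with a reference of the family, and identity is the share of the longer sequence that matched. The first set of sequences gives the U1 genes on which the U1 result turns, in DNA letters, 5′ to 3′, from the GRCm38 annotation. Capitals in Rnu1a1 (chr11:87422867-87423030, plus strand) mark the bases that pair with the 5′ splice site. The capital in Gm22513 (chr12:54696782-54696945, plus strand) marks its only difference from Rnu1a1, T60C counted from the 5′ end, where Rnu1a1 is the reference. Gm25153 (chr3:122464727-122464882, plus strand), in an intron of Bcar3, is shown as a diverged copy in which those letters are not found.
Rnu1a1: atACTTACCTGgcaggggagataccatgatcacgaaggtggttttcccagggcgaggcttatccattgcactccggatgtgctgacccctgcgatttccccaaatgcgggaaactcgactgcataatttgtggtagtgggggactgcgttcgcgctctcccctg
Gm22513: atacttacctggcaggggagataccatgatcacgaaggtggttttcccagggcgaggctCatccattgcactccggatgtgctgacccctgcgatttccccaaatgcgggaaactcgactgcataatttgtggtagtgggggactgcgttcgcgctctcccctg
Gm25153: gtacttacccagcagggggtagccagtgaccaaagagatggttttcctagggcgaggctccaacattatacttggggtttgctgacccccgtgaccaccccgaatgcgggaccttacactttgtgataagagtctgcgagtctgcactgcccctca

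The U2 genes are shown because copies that differ at a few bases behaved differently. Capitals in Rnu2-10 (chr11:101658238-101658428, plus strand) mark the bases that pair with the branch site. Capitals in Gm25360 (chr1:72226240-72226430, plus strand) and Gm25939 (chr1:72255008-72255198, plus strand) mark the bases that differ from Rnu2-10. These were C78T, A95G, G109C and C154T in Gm25360, and T69C, C78T and G109C in Gm25939, with Rnu2-10 as the reference and positions counted from the 5′ end.
Rnu2-10: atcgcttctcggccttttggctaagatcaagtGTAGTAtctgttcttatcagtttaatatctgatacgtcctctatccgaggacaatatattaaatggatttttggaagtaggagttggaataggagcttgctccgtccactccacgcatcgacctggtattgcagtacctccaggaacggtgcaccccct
Gm25360: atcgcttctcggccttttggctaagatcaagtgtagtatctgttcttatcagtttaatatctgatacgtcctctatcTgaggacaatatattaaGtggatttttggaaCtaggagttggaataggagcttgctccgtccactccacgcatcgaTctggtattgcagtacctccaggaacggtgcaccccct
Gm25939: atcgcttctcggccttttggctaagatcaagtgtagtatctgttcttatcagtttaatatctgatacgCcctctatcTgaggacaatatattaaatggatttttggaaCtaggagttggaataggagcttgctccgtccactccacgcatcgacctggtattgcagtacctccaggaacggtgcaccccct

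The last set stands for U4 by Gm24265 (chr5:115489459-115489599, plus strand) and for the minor spliceosome by Rnu12 (chr15:83149644-83149794, plus strand). Capitals mark the stretch of T that matches the Sm protein site.
Gm24265: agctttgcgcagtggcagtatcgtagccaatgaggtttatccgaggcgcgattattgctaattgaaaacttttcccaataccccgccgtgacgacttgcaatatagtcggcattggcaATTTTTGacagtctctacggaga
Rnu12: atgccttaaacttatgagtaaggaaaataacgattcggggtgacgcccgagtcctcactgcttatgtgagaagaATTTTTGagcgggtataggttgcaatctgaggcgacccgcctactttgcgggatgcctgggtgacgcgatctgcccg

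Of the 105 genes, 49 were U6 copies, 24 U1, 14 U2, 6 U4, 3 U5, 2 U6atac, 1 U11, 1 U12, and 5 matched no reference at 65% identity or more. The U4 reference Gm24265 and the U6atac reference Gm25541 were named from background knowledge, since no symbol in the table names those families. Outside U6, 34 of the 56 genes were 95% or more identical to the reference, and within U6 9 of 49 were. That 95% line was drawn after the values were seen. The sequences of Gm22513, Gm25360, Gm25939, Rnu5g, Rnu11 and Rnu12 each occurred once among the snRNA transcripts, but 4 U2 genes (Rnu2-10, Gm24950, Gm23849 and Gm23971) were identical, as were 7 U1 genes including Rnu1a1, 3 U1 genes including Rnu1b6, and 43 U6 genes including Rnu6. The U2 genes Gm23472 and Gm23444 were identical to each other as well. The sequences of the U1 genes Gm22614 and Gm25890 each occurred 2 times among the snRNA transcripts. Reads inside identical copies cannot be told apart, so the split of counts among such copies is uncertain and families were also summed.

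The snRNA genes as a class were far higher in Mmp13-/- pulp. Their summed level was 89.8, 83.8 and 87.9 CPM in WT replicates 2, 4 and 5, and it was 797, 850 and 916 CPM in Mmp13-/- replicates 1, 2 and 6. The lowest knockout library stood well above the highest WT library. The means of 87.1 ± 3.06 and 854 ± 59.9 (SD, n = 3 each) differed 9.80-fold, or 3.29 on the log2 scale. A sum over the class has no test across genes, and an exact permutation test of 3 against 3 libraries cannot give a two-sided p below 0.1. The class took 0.00821% to 0.00870% of all counts in WT and 0.0736% to 0.0960% in Mmp13-/-, so it was a minute part of each library. The 105 genes held 70.3% to 71.8% of the class in WT and 92.5% to 96.1% in Mmp13-/-. Other non-coding types did not all move the same way. Small nucleolar RNA genes summed to 151 to 190 CPM in WT and 874 to 1071 in Mmp13-/-, and Cajal body RNA genes to 138 to 220 and 311 to 367. The sums of genes typed as miRNA were lower in the knockout, at 267 to 345 in WT and 135 to 173 in Mmp13-/-, as were those of genes typed as rRNA, at 1549 to 2478 and 311 to 650.3. Whether recovery of short RNAs differed between the genotypes was not tested.

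Most of the rise lay in near-identical copies of families other than U6. The 48 near-identical rows outside U6 summed to 38.7, 32.2 and 38.9 CPM in WT and 746, 798 and 831 in Mmp13-/-. Their mean rose 21.6-fold. They made up 38.5% to 44.2% of the class in WT and 90.7% to 94.0% in Mmp13-/-. The 1151 diverged or unplaced rows summed to 40.7, 42.8 and 41.5 in WT and 42.8, 44.2 and 70.0 in Mmp13-/-, a 1.26-fold difference in which MMP13KO replicate 6 was the high library.

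**Figure D1:**
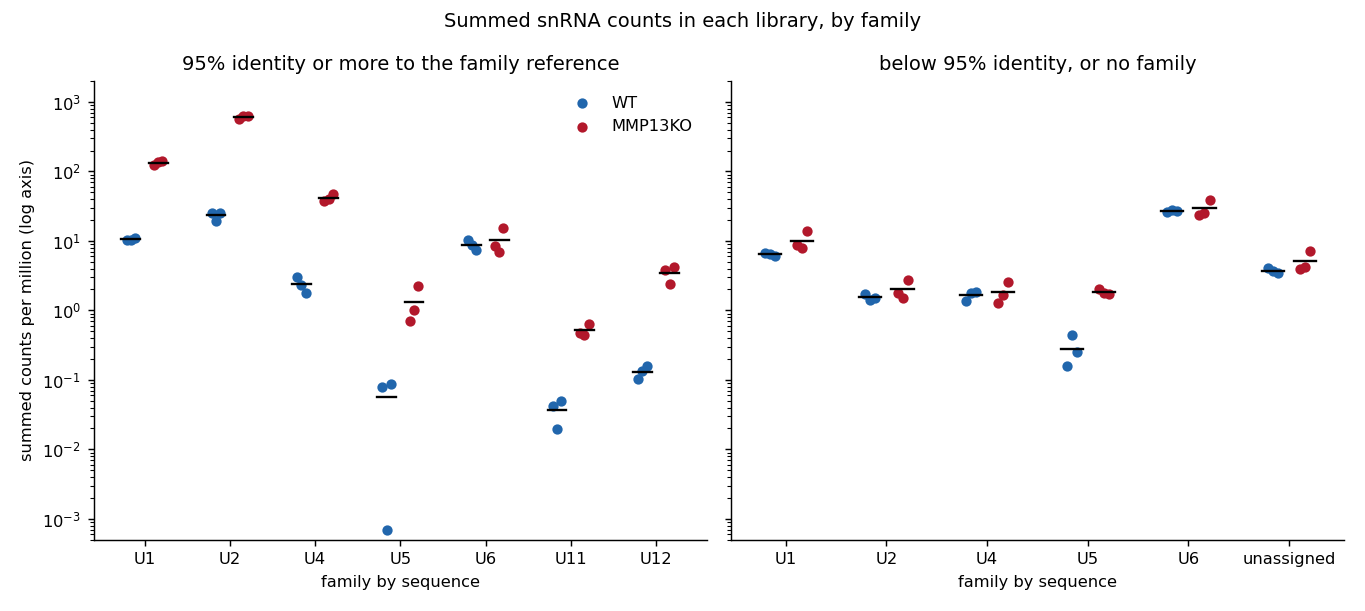
Summed CPM of each snRNA family in each library (points, log axis) with the genotype mean (bar), for rows at 95% identity or more to the family reference (left) and for the other rows (right). The near-identical U1, U2, U4, U5, U11 and U12 sums of the knockout libraries all lie above those of WT, while the U6 sums overlap.

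Across all genes the edgeR quasi-likelihood test was run on 24534 genes, and a call required both an adjusted p below 0.05 and a change of more than 2-fold. Of the 105 snRNA genes 55 passed the filter on low counts, and 35 of these were called higher in Mmp13-/- and 1 lower, against 20.4% of all tested genes called higher and 9.68% called lower. Of the 55, 24 had 10 counts or more in every WT library and 36 in every knockout library, so 21 entered at that depth through the knockout only and would have had to differ. The 35 were called also by DESeq2 and by limma on the deposited log2 values. Their log2 differences ran from 2.36 to 6.63, leaving aside Gm25813 and Gm25313, which had no rounded count in WT. The median was 3.72, also with those genes set at their bounds, but a call itself required more than 2-fold. Over all 55 tested snRNA genes the median was 3.38, beside 0.10 over all genes tested. The 20 tested genes not called higher ran from -1.54 to 0.58 with a median of -0.83.

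Over all 105 genes, tested or not, 41 had every Mmp13-/- library above every WT library and 18 the reverse, beside 36.5% and 14.8% of all genes with any count. The remaining 46 overlapped. Of the 34 near-identical genes outside U6, all 34 lay above WT. Of the 105 genes, however, 28 had reached the sum of 30 through their knockout counts alone, near-identical ones such as Rnu1a1 among them. For those genes a place above WT was favoured by the rule. Of the 62 diverged or unplaced genes, 6 lay above WT, 15 below and 41 overlapped.

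**Figure D2:**
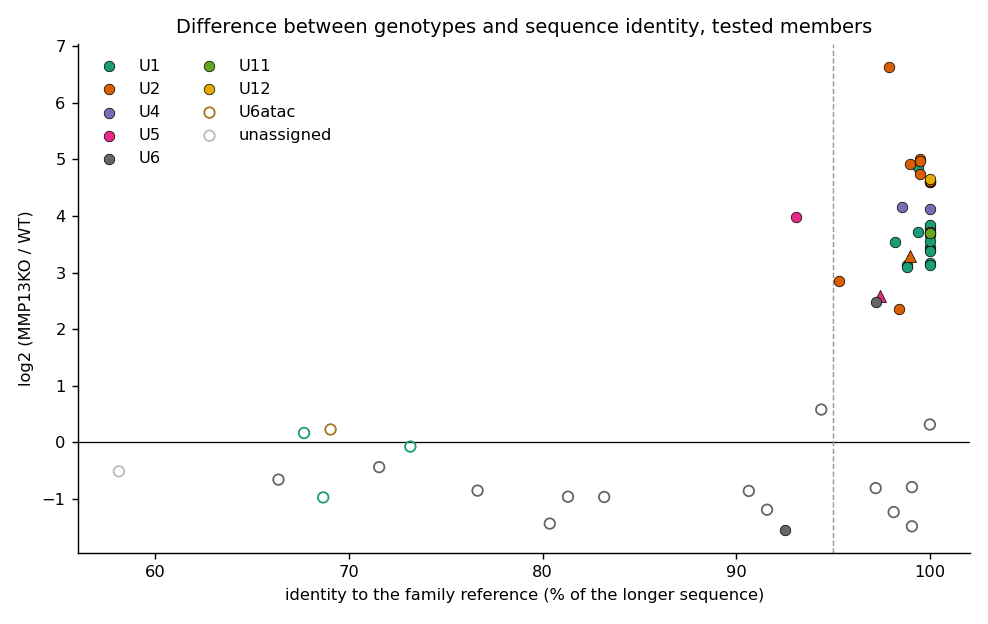
Log2 difference between genotypes of the 55 tested snRNA genes against identity to the family reference (filled points called, open points not called, triangles lower bounds for genes without a rounded WT count, dashed line 95%). Points outside U6 lie above 2 on the log2 scale only at 93.1% identity or more, and most U6 points lie below 0.

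U2 was the largest family in the knockout libraries. All its rows together summed to 26.8, 20.9 and 27.2 CPM in WT and 579, 621 and 638 in Mmp13-/-, a 24.6-fold difference of the means. U2 went from 24.99% to 30.9% of all snRNA counts in WT to 69.7% to 73.1% in Mmp13-/-. All 12 tested U2 genes were called higher, beside 20.4% of all tested genes. All 12 held the branch-site bases GTAGTA, as did 55.3% of all 38 U2 transcripts. Each of the 12 was near-identical to Rnu2-10, which holds those bases. Reads of identical copies among them cannot be told apart, so the 12 are not separate observations. Rnu2-10 had 2.95, 2.27 and 3.01 CPM in the WT libraries against 65.2, 70.7 and 67.4 CPM in the knockout libraries. The genotypes were far apart and each was tight (log2 difference 4.62, SE 0.17, adjusted p = 2.67e-07). Its 3 identical copies Gm24950, Gm23849 and Gm23971 differed by 4.60 to 4.61.

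The U2 genes lie in clusters. The 5 on chromosome 11 between 101604850 and 101658428 summed to 15.5 ± 2.60 in WT and 381 ± 14.2 in Mmp13-/- (SD, n = 3 each). The fifth of them, Gm26316, which differs from Rnu2-10 at 1 base (C170T), had a log2 difference of 4.73. The 4 on chromosome 1 between 72226240 and 72255198 summed to 6.54 ± 0.81 and 193 ± 19.0. Of these Gm24497 (4.92) and Gm23472 (5.003) lie in introns of the non-coding gene D230017M19Rik and moved like the chromosome 11 copies. Gm23444, elsewhere on chromosome 11, had 4.97. Its sequence is identical to that of Gm23472, both differing from Rnu2-10 only at G109C. The split of counts between these copies is uncertain, so their values are not separate observations.

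The other pair of the chromosome 1 cluster departed from the rest in opposite directions. Gm25360 had 0.55, 0.59 and 1.12 CPM in WT and 67.5, 73.7 and 82.4 in Mmp13-/-, a log2 difference of 6.63 (SE 0.26, adjusted p = 3.45e-07). Gm25939, which lies in an intron of D230017M19Rik, had 2.61, 2.20 and 2.39 in WT and 11.4, 11.7 and 13.9 in Mmp13-/-, a difference of 2.36 (SE 0.18, adjusted p = 3.96e-05). Both rose, but their order was exchanged. Gm25939 was the higher of the pair in each WT library and Gm25360 in each knockout library. Of all near-identical U2 counts Gm25360 took 2.18% to 4.35% in WT and 11.7% to 13.0% in Mmp13-/-, and Gm25939 took 9.34% to 11.2% and 1.90% to 2.20%. The pair was chosen for this contrast after its values were seen, so the difference between the copies is a description and was not tested.

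A few U2 copies were low in WT. Gm25813, on chromosome 8, had 0.29, 0 and 0 estimated counts in WT and 26.1, 34.1 and 19.4 in Mmp13-/-. Against the level of 3 counts per WT library, which a count of 0 allows, it was at least 9.77-fold higher. Gm22973, 95.3% identical to Rnu2-10, had a difference of 2.85 (SE 0.53), and its WT counts of 17.2, 12.4 and 1.68 were uneven. The intervals and floors given here cover counting error only.

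U1 rose less than U2. All U1 rows summed to 17.2, 16.7 and 17.3 CPM in WT and 133, 142 and 154 in Mmp13-/-, an 8.40-fold difference, and the near-identical rows alone rose 12.5-fold. All 15 near-identical U1 genes were tested and called higher, with log2 differences of 3.10 to 4.86 and a median of 3.54. Of all tested genes 20.4% were called higher. All except Gm22513 had fewer than 10 counts in each WT library and more than 10 in each knockout library. Those genes passed the filter through the knockout, so their call was favoured in advance. Among the 15, 7 share the sequence of Rnu1a1 and 3 that of Rnu1b6, so these are not separate observations. All 15 held ACTTACCTG, the bases that pair with the 5′ splice site. Of the 9 diverged U1 genes 1 held it, and 28.1% of all 185 U1 transcripts did.

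A single gene gave most of the U1 counts in both genotypes. Gm22513, first of a cluster of 7 on chromosome 12, had 8.35, 7.76 and 8.22 CPM in WT and 98.5, 110 and 110 in Mmp13-/-. The knockout libraries were all more than 10 times the WT libraries, and the log2 difference was 3.71 (SE 0.15, adjusted p = 3.45e-07). It held 73.8% to 79.8% of near-identical U1 counts in WT and 78.7% to 82.0% in Mmp13-/-, so its share stayed in much the same range while its level changed. Rnu1a1 itself, in an intron of Tex14, had 0.067, 0.072 and 0.069 in WT and 0.91, 1.29 and 1.001 in Mmp13-/- (3.85, SE 0.57, adjusted p = 0.000521). Over the 7 copies identical to Rnu1a1 the differences ran from 3.38 to 3.85. Rnu1b6, of the U1b type, lies in a cluster of 5 on chromosome 3 and had 0.16, 0.24 and 0.32 in WT and 2.29, 1.69 and 2.66 in Mmp13-/- (3.14, SE 0.42, adjusted p = 0.000315).

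The diverged U1 copies did not follow. Of the 3 that were tested none was called in either direction, with log2 differences of -0.97, -0.07 and 0.17. Gm25153 in Bcar3, named after its values were seen, had 0.88, 0.73 and 0.50 for WT and 0.44, 0.33 and 0.30 for Mmp13-/-. The genotypes did not overlap, and the knockout was the lower (-0.97, SE 0.51, adjusted p = 0.136). With limma on the deposited values the adjusted p was 0.0274.

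U4 and U5, which join U6 in the tri-snRNP, differed widely in level. The U4 reference Gm24265 had 1.64, 1.15 and 1.04 CPM in WT and 20.2, 21.7 and 25.5 in Mmp13-/- (4.11, SE 0.21, adjusted p = 3.75e-06). Its neighbour Gm24407, less than a kilobase away on chromosome 5, differs at G88A and C99A (Gm24265 as reference) and had a difference of 4.16. The other 4 U4 genes were diverged intronic copies that did not pass the filter. Rnu5g, on the strand opposite Parp16, had 0.080, 0 and 0.088 in WT and 0.36, 0.55 and 1.13 in Mmp13-/- (3.72, SE 0.89, adjusted p = 0.00611). Gm25313 in the same gene had 0, 0.02 and 0 estimated counts in WT and 10.7, 13.8 and 19.0 in Mmp13-/-, at least 6.00-fold higher. Gm25099 on chromosome 4, 93.1% identical to Rnu5g and the only diverged gene called higher, had a difference of 3.98 (SE 0.75).

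The snRNAs of the minor spliceosome also rose, at low counts. Rnu12 had 0.10, 0.13 and 0.16 CPM in WT and 3.61, 2.33 and 4.08 in Mmp13-/- (4.65, SE 0.41, adjusted p = 6.27e-05). Rnu11 lies on the strand opposite an exon of the non-coding gene Gm28872, so without strand its reads cannot be told apart from that gene's. Rnu11 had 1.21, 0.57 and 1.35 counts in WT and 15.2, 13.2 and 11.2 in Mmp13-/-, a 14.1-fold ratio with an exact 95% counting interval of 4.49 to 71.4. The U6atac gene Gm25541 did not pass the filter. It was at 0 in all WT libraries and had 21.5, 8 and 6.72 counts in Mmp13-/-, at least 4.24-fold higher against 3 counts per WT library. The single U7 gene of high identity, Rnu7, gave almost no counts in either genotype.

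**Figure D3:**
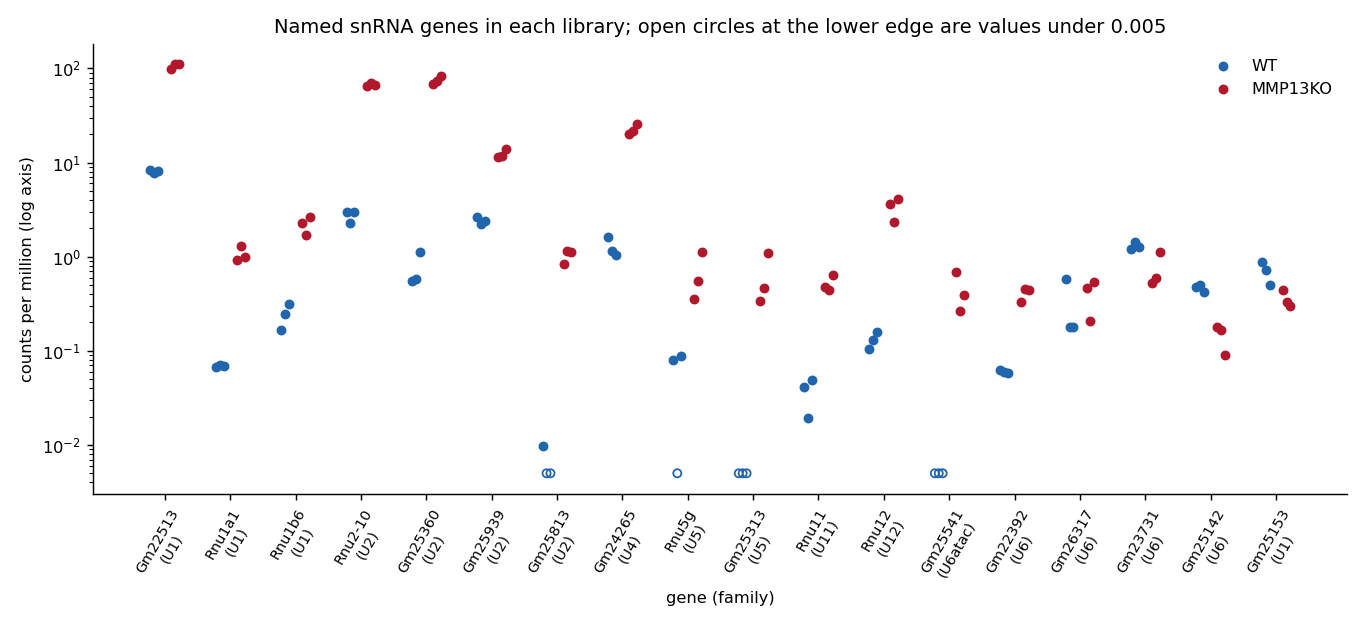
CPM (log axis) of 18 named snRNA genes in each library, WT in blue and MMP13KO in red, with open circles at the lower edge for values under 0.005. The U1, U2, U4, U5, U11, U12 and U6atac references and copies on the left separate by genotype with the knockout above, and the U6 copies Gm26317, Gm23731 and Gm25142 and the diverged U1 copy Gm25153 do not show that rise.

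U6 stood apart from the other families. All 912 U6 rows summed to 36.1, 36.8 and 34.8 CPM in WT and 32.3, 32.5 and 54.8 in Mmp13-/-. The genotypes overlapped, and only MMP13KO replicate 6 exceeded WT. The log2 ratio of the means was 0.15 and turned to -0.15 without that library and to -0.09 with the receptor gene rate subtracted. U6 thereby went from 39.7% to 43.9% of snRNA counts in WT to 3.82% to 5.98% in Mmp13-/-. The near-identical U6 rows, 184 in number, overlapped between genotypes as well, with sums of 10.4, 8.73 and 7.50 for the WT libraries and 8.33, 7.04 and 15.4 in Mmp13-/-. The 43 rows identical to Rnu6 had a mean of 1.78 ± 0.70 in WT and 2.97 ± 1.12 in Mmp13-/- (SD, n = 3 each), within overlapping ranges.

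Of the 16 U6 genes tested 1 was called higher, 1 lower, and 14 neither, beside 20.4% and 9.68% of all tested genes. Of the 49, 48 lie in introns. Every knockout library lay below every WT library in 12 of them and above in 3, beside 14.8% and 36.5% of all genes with any count. Gm26317, identical to Rnu6 and in an intron of Nhs, had 0.58, 0.18 and 0.18 CPM in WT and 0.47, 0.21 and 0.54 in Mmp13-/-, with no separation. Gm23731, on the strand opposite Cd44, was the highest U6 copy. It had 1.19, 1.45 and 1.27 in WT and 0.53, 0.60 and 1.13 in Mmp13-/- (-0.81, SE 0.42, adjusted p = 0.136), and without MMP13KO replicate 6 it had -1.19 and an adjusted p of 0.0181.

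The gene called lower was Gm25142, on the strand opposite Kremen1, with 0.47, 0.50 and 0.42 CPM in WT and 0.18, 0.17 and 0.09 in Mmp13-/-. These were 11.5 to 14.5 counts against 1.57 to 5.6, and the difference of -1.54 (SE 0.58, adjusted p = 0.0464) was just past the threshold. DESeq2 gave it an adjusted p of 0.123, and leaving out any WT library, or MMP13KO replicate 1 or 2, ended the call, as did upper-quartile factors and library totals. Without MMP13KO replicate 6 the number of genes called lower went from 1 to 8 of 79 tested, beside 9.32% of all genes, while all 35 genes called higher were still called, beside 19.7% of all genes. The U6 gene called higher was Gm22392, which lies in an exon of Eny2 on the same strand, so that reads of Eny2 mRNA count towards it. It had 0.063, 0.060 and 0.059 in WT and 0.33, 0.46 and 0.45 in Mmp13-/- (2.48, SE 0.67, adjusted p = 0.0114), and leaving out any WT library or MMP13KO replicate 2 moved its adjusted p to between 0.0761 and 0.0849.

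Levels per kilobase of the family reference divide each sum by the length of that reference. Whether counts of RNAs this short scale with length was not tested, so the orders describe these values only. In WT the order of the sums over all rows was U6 (336 CPM per kilobase), U2 (131), U1 (104), U4 (28.4), U7 (5.72), U6atac (4.61), U5 (2.91), U12 (0.87) and U11 (0.43). In Mmp13-/- it was U2 (3208), U1 (873), U6 (372), U4 (312), U5 (27.4), U12 (23.3), U7 (11.4), U6atac (10.97) and U11 (4.68). The order depended on the diverged rows, which gave 253 of the 336 of U6 in WT. Over near-identical rows alone it was U2 (123), U6 (82.8), U1 (64.7), U4 (16.7), U12 (0.87), U5 (0.49), U11 (0.27) and U7 (0.038) in WT, with U6atac at 0. In Mmp13-/- it was U2 (3198), U1 (811), U4 (299), U6 (96.0), U12 (23.1), U5 (11.3), U11 (3.89), U6atac (3.53) and U7 (0.011). Differences between neighbours in these orders were not tested.

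The genes called higher differed from the other tested genes in position and sequence. Of the 35, 23 were intergenic, 10 lay in introns and 2 in exons, whereas all 20 of the other tested genes lay in introns. The Sm site, searched as ATTTNTG or ATTTTTTG on the RNA strand only, was present in 34 of the 35 (97.1%), in 3 of the 20 (15%) and in 300 of all 1383 snRNA transcripts (21.7%). These contrasts largely restate the families, since 34 of the 35 were at 95% identity or more and 15 of the 20 were U6 copies. The site was in 33 of the 34 near-identical genes outside U6 and in 4 of the 49 U6 genes. Identical copies, whose reads cannot be told apart, count here as separate genes. A match describes the letters only.

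Copies inside introns can be set beside the gene that surrounds them. Among 19 intronic genes tested but not called higher whose hosts were tested, the median log2 difference was -0.81 and that of their hosts was -0.68. The sign was the same in 12 of 19, with 15 of the snRNA genes and 14 of the hosts below 0. Gm25142 (-1.54) and its host Kremen1 (-1.21, adjusted p = 0.000261) were both called lower. The 8 intronic genes called higher with a tested host had a median of 3.78, Gm25313 taken at its bound, and their hosts -0.32. These genes were chosen by their call, and 6 of the 8 host values were below 0. That each lay above its host was therefore favoured in advance. Several shared a host, the hosts being Rdm1, D230017M19Rik, Tex14 and Parp16. D230017M19Rik, host to 3 U2 genes, had -0.32 (adjusted p = 0.145), and Parp16, host to Rnu5g and Gm25313, had -0.79 (adjusted p = 0.00719). Tex14, host to Rnu1a1 and Gm22068, was itself called higher (2.35, adjusted p = 0.00511), though at 0.31 and 1.65 CPM. The strandedness of the libraries is not given in the sources used here, so reads of a host and of a copy on the opposite strand cannot be told apart.

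**Figure D4:**
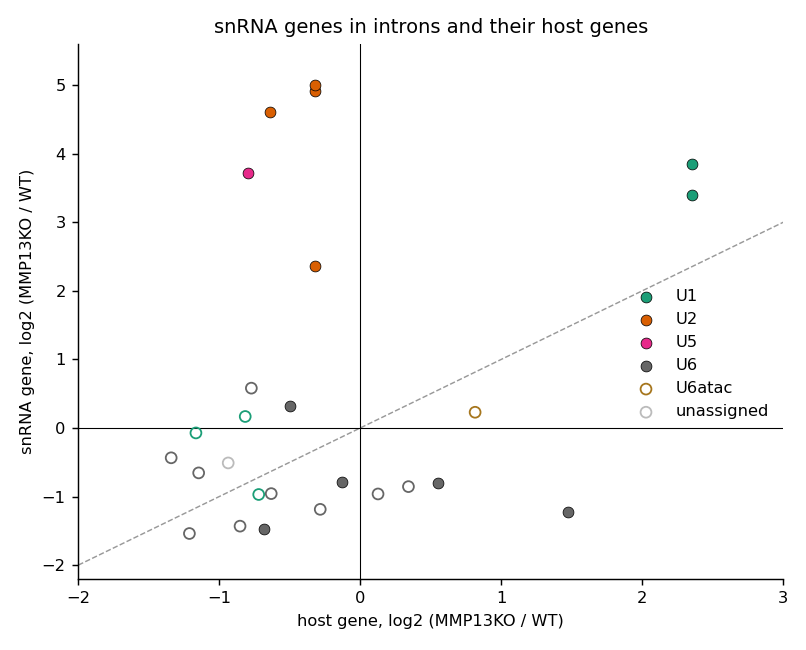
Log2 difference of intronic snRNA genes against that of their host genes (filled points at 95% identity or more, open points diverged, dashed line equality, genes without a rounded WT count left out). Near-identical U2 and U5 copies lie far above the line. The U1 copies Rnu1a1 (3.85) and Gm22068 (3.40) lie nearer to it, with their host Tex14 at 2.35. Most U6 and diverged copies lie below 0.

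Genes for the proteins that bind, make and assemble snRNAs were called in both directions. Of 108 protein genes in 10 lists, all tested, 12 were called higher and 5 lower, beside 20.4% and 9.68% of all tested genes, and the median log2 difference was -0.02. The Sm ring, which binds U1, U2, U4 and U5, had 2 of 7 genes called higher. Snrpd1 went from 3.57 ± 0.81 to 10.2 ± 1.28 CPM (1.52, SE 0.21, adjusted p = 0.000399) and Snrpg from 5.05 ± 0.67 to 14.1 ± 1.13 (1.48, adjusted p = 0.000156). The other 5 were not called: Snrpe had 0.66, Snrpd2 0.63, Snrpd3 0.13, Snrpf -0.71 and Snrpb, the highest in level, -0.72. Snrpd3 turned to -0.031 without MMP13KO replicate 1.

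In the Lsm ring of U6 3 of 7 genes were called higher, led by Lsm3 (1.995, SE 0.18, adjusted p = 7.38e-05), while the U6 RNA sums overlapped between genotypes. Of the 3 U1-specific protein genes only Snrnp70, for the U1-70K protein, was called, and it was lower, from 235 ± 9.30 to 105 ± 16.2 CPM (-1.15, SE 0.17, adjusted p = 0.000444), but with GC content corrected it had -0.28 and an adjusted p of 0.081. Snrpa had -0.56 and Snrpc -0.66, short of the 2-fold limit. Of 11 U2 protein genes 3 were called higher, led by Snrpb2, the U2 B″ protein (2.03, SE 0.20, adjusted p = 0.000101). Of 17 genes for U5 and tri-snRNP proteins, Snrnp27 was called higher (1.35) and Sart1 lower (-1.01). Of 10 minor spliceosome genes Pdcd7 was called lower (-1.51, adjusted p = 9.67e-05) and none higher.

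Among the genes for snRNA synthesis, 1 of 15 transcription genes was called higher and 1 lower. These were Snapc5 (1.04) and Snapc2 (-1.03), both subunits of the SNAPc complex that binds snRNA promoters, and with GC content corrected Snapc2 had -0.08. Of 14 Integrator genes, whose products cut the 3′ ends of polymerase II snRNAs, Ints1 was called lower (-1.34, SE 0.14, adjusted p = 0.00013). Of 20 assembly and export genes Tgs1, which makes the trimethylated cap, was called higher (1.41, SE 0.17, adjusted p = 0.000208). Of the 4 genes for the U7 snRNP and histone pre-mRNA processing, Zfp473 was called higher (1.61).

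**Figure D5:**
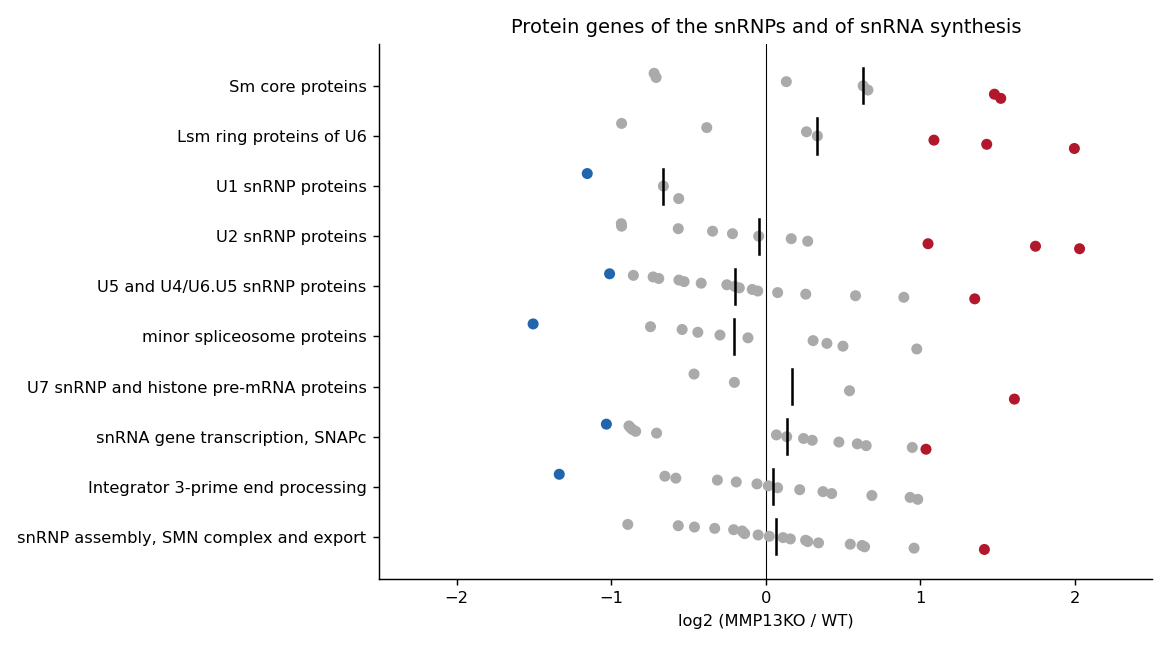
Log2 difference between genotypes of the protein genes of each list (points, red called higher, blue called lower, grey not called) with the list median (black bar). The points of every list fall on both sides of 0 except the 3 U1 proteins, which are all below 0.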

How the data were processed

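Pulp RNA of 3 WT and 3 Mmp13-/- mice was sequenced by the authors on an Illumina HiSeq as paired ends and analysed in Strand NGS. Their processing notes name mm10 and DESeq. Aligner settings, gene annotation release, strandedness and the treatment of reads with several matches are not given in the sources used here. The deposited table holds estimated counts per gene, with fractions, and log2 values that the authors scaled by size factors and centred on each gene's median.

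Estimated counts were rounded and tested with edgeR 4.0.16 in R 4.3.3 (TMM scaling, filterByExpr, quasi-likelihood test, Benjamini-Hochberg adjustment over 24534 genes), with WT against Mmp13-/- and no covariate. CPM use TMM-scaled totals, and SE is the log2 difference divided by the square root of F. DESeq2 1.42.0 and limma 3.58.1 served as alternatives. The edgeR test with TMM and with RLE factors, DESeq2, limma and the correction for GC content were tested on simulated data, and the other steps were not. Gene identifiers were matched to GENCODE M21 on GRCm38 (99.8% matched), and every snRNA identifier had 1 transcript sequence there. Some of these sequences are not reported here. Members and gene lists were chosen with earlier results of these data known. Named genes were Mmp13, each Rnu gene among the members, the 10 other members with the largest sums, up to 8 called members per direction with the smallest adjusted p and genotypes that did not overlap, the rows next to the threshold, all Sm and U1 protein genes and the leading call per direction in each protein list. Gm22068, Gm25939, Gm25813, Gm22973, Gm25313, Gm25099, Gm25541, Gm24407, Gm26317, Gm23731, Gm25153 and Gm22392 were added after their values were seen. The study calls the replicates biological, and the p-values measure the spread between these 3 libraries per genotype.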

Additional observations from a re-analysis of the deposited data

How the results depend on the processing

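The number of snRNA genes called higher was 34 to 36 with 1 library left out. It fell from 35 to 13 with 10 counts required in every sample, where 15 members were tested, and to 20 with a WT sum of 15 or more. The number called lower was 1 in the main test. It was 0 with upper-quartile factors, with no filter, with 10 counts in every sample, with DESeq2 and with a member sum of 100, where 1, 3, 0, 1 and 1 members were lower at an unadjusted p under 0.05. It was 2 without the 10 most abundant genes in the scaling, 4 with limma on the deposited values, 5 with GC content corrected, and 0 to 8 with 1 library left out. Protein genes called lower went from 5 to 2 with upper-quartile factors, 3 with library totals, 9 without the 10 most abundant genes, 8 with no filter, 3 with 10 counts in every sample, 3 with the receptor gene rate subtracted, 1 with GC content corrected, and 3 to 10 with 1 library left out. The class sum had a log2 ratio of 3.51 with upper-quartile factors and 3.16 without the 10 most abundant genes, against 3.29. Snrpd3 changed sign, at -0.031 without MMP13KO replicate 1, with 1 library left out giving -0.031 to 0.27. The U6 sum, whose genotypes overlap, also changed sign, from a log2 ratio of 0.15 to -0.15 without MMP13KO replicate 6 and -0.09 with the receptor gene rate subtracted. The causes of these changes were not tested.

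The median log2 difference of all genes came to 0.10. It came to 0.32 under upper-quartile scaling, 0.21 with library totals, 0.22 with GC content corrected and -0.05 without the 10 most abundant genes. Of all calls 67.8% were higher in the main test, against 81.4%, 76.9%, 83.6% and 56.8% in those 4. For the protein genes the shares were 70.6% and then 90.0%, 85.7%, 91.7% and 50%. Low WT counts limit U5, U11, U12, U6atac and the near-identical U1 copies other than Gm22513. No paired analysis was run, since the sample labels used here name no pairing of WT with knockout libraries.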
